A study of Mus musculus with 8 samples.

Results

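The 215 sites described here are cytosines at which adult oligodendrocyte progenitor cells (aOPC) gave many hydroxymethylation reads and adult oligodendrocytes (aOL) gave nearly none. They were chosen on these counts, as sites with at least 50 raw counts in both aOPC libraries and at most 3 in both aOL libraries. They are 215 of the 1497075 sites listed in any of the 4 tables of reduced representation hydroxymethylation profiling (RRHP), a site that a table did not list being taken as 0. They were also 1.78% of the 12107 sites that reached 50 counts in both aOPC libraries.

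The aOPC were EGFP-positive cells sorted from brains of Pdgfra-H2BEGFP mice, in which the Pdgfra locus drives a nuclear EGFP, and the aOL were EGFP-positive cells sorted from brains of Plp-EGFP mice, in which a transgene with an oligodendrocyte promoter drives EGFP. All mice were at postnatal day 60 and all samples carry the strain label C57BL/6. Each population had 2 RRHP and 2 RNA-sequencing libraries, numbered replicates 2 and 3, with DNA and RNA taken from the same pellet of cells, and replicate 1 was not analysed here. The 2 populations came from different reporter lines, so cell population and mouse line cannot be told apart in anything below. In the tissue field, the RRHP samples of aOL carry the name of the Pdgfra reporter, and their titles were used to group them. The titles of the aOL RNA samples name pre-myelinating oligodendrocytes, whereas the paper calls the sorted cells adult oligodendrocytes. Nothing states how many animals went into a library, so the spread between replicates may be partly technical.

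5-hydroxymethylcytosine (5hmC) is made from 5-methylcytosine by the TET enzymes, and it is abundant over gene bodies in the brain, where it can persist or be removed on the way to an unmethylated cytosine. RRHP reads it at MspI sites, the sequence CCGG. An adapter is placed at the ends of MspI fragments, a glucose is put on each 5hmC, and MspI then removes the adapter wherever the inner cytosine carries no glucose, so only hydroxymethylated ends are read. Each strand of a CCGG is counted on its own and reads the fragment that runs away from it in its own direction, so a count needs an intact CCGG, a hydroxymethylated cytosine and a fragment short enough to be amplified and sequenced. In these libraries 93.1% to 94.3% of all counts came from fragments of 31 to 400 bases.

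The reference sequence around the sites is shown first because the assay depends on these letters. The CCGG is in capitals, each sequence is written 5′ to 3′ on the strand that was counted, and positions are of GRCm38 (mm10) with letters from its RefSeq copy. These are the 12 sites with the highest CPM (counts scaled to a library of 1e+06 counts) in the weaker of the 2 aOPC libraries.
Ank2, exon of the transcript outside the coding part, chr3:127241636-127241665, minus strand: ccagtgagtggatCCGGtactgtccactta
Esrrg, intron, chr1:188061163-188061206, minus strand: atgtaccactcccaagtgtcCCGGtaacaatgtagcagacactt
Tox3, intron, chr8:90290552-90290595, plus strand: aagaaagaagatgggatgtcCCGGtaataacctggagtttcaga
Shisa3 as the nearest gene, intergenic, chr5:67530444-67530487, plus strand: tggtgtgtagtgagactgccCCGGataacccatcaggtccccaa
Gm32770, intron, chr4:138709044-138709087, minus strand: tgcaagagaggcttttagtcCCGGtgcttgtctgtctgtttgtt
Clic5, intron, chr17:44160400-44160443, minus strand: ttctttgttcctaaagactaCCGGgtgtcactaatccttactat
Cps1 as the nearest gene, intergenic, chr1:67497010-67497053, minus strand: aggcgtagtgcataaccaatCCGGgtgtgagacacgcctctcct
Tnks as the nearest gene, intergenic, chr8:34970925-34970968, minus strand: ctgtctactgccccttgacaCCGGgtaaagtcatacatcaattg
Dock4, intron, chr12:40448176-40448219, minus strand: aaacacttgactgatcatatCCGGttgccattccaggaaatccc
Rnase1 as the nearest gene, intergenic, chr14:51148394-51148437, plus strand: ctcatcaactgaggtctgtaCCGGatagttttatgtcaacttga
Disp3 as the nearest gene, intergenic, chr4:148338408-148338451, minus strand: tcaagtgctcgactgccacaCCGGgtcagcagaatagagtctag
Eif4g3, intron, chr4:138000230-138000273, plus strand: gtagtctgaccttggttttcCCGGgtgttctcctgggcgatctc

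The RRHP libraries held 7113237 counts for aOPC replicate 2, 17121440 for aOPC replicate 3, 15923775 for aOL replicate 2 and 27057859 for aOL replicate 3. The shallowest library was thus an aOPC library and the deepest an aOL library. A threshold of 50 counts stood for 7.03 CPM in aOPC replicate 2 and 2.92 CPM in aOPC replicate 3, and 3 counts, the most that a count of 0 leaves room for, stood for 0.188 CPM in aOL replicate 2 and 0.111 CPM in aOL replicate 3. These limits cover counting error only, since reads of 1 original molecule could not be recognised.

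At the 215 sites the counts in aOPC replicate 2 ran from 50 over a median of 63 to 195, and in aOPC replicate 3 from 54 over a median of 143 to 406. In aOL replicate 2, 166 of the 215 sites had no count, and in aOL replicate 3, 120 had none. No site had a count in both aOPC libraries under 50 or in an aOL library over 3, as the choice of the sites fixes. The counts summed over the sites were 15369 and 32409 for aOPC against 61 and 137 for aOL, or 0.216%, 0.189%, 0.000383% and 0.000506% of the library. The aOPC libraries gave similar levels, with medians of 8.86 and 8.35 CPM and a median ratio of 1.28 between the higher and the lower of the 2 CPM values of a site. The other 11892 deeply read aOPC sites, those with at least 50 counts in both aOPC libraries that were not among the 215, had medians of 9.14 and 8.47 CPM in aOPC, close to the 215 sites, and of 7.85 and 7.32 CPM in aOL.

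**Figure D1:**
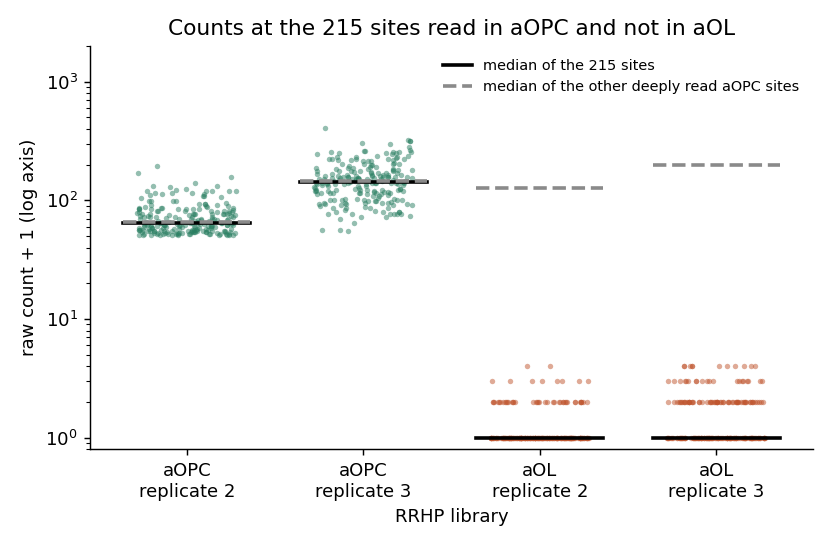
Raw counts plus 1 (log axis) of the 215 sites in each of the 4 RRHP libraries, 1 point per site, with the median of the 215 sites (solid line) and of the other 11892 deeply read aOPC sites (dashed line). The medians of the 215 sites were 63 and 143 counts in aOPC, close to those of the other deeply read sites, and 0 in both aOL libraries, where the other sites had medians of 125 and 198 counts.

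Intermediate ratios were few. Of the 12107 deeply read aOPC sites, 213 had a ratio of aOL to aOPC mean CPM under 0.01, 242 had a ratio under 0.1 and 632 had a ratio under 0.5. The median ratio over the other deeply read sites was 0.833. At the 94 sites with no count in either aOL library, the level in aOL was at least 34.5-fold to at least 106-fold lower than in aOPC, with the aOL libraries set to 3 counts each.

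The highest of the 215 was the cytosine at position 127241651 of chromosome 3, inside Ank2 by RefSeq and in no gene by the authors' annotation. Ank2 encodes an ankyrin that ties membrane proteins to the cytoskeleton. It had 168 and 406 counts in the 2 aOPC replicates, a mean of 23.7 ± 0.0672 CPM (SD, n = 2), and 0 and 2 counts in aOL. The site in an intron of Esrrg, an orphan nuclear receptor, had 195 and 301 counts in aOPC, a mean of 22.5 ± 6.95 CPM (SD, n = 2), and 0 and 2 in aOL. The site in an intron of Tox3, an HMG-box protein, had 157 and 296 counts in aOPC, a mean of 19.7 ± 3.38 CPM (SD, n = 2), and 0 and 1 in aOL. At each of these sites both aOPC libraries stood far above both aOL libraries. The fifth highest, in an intron of the uncharacterised gene Gm32770 on chromosome 4, had 118 and 259 counts in aOPC against none in aOL, at least 106-fold lower. The remaining sites of the 12 printed above had 109 to 138 counts in aOPC replicate 2, 231 to 323 in aOPC replicate 3 and at most 2 in an aOL library.

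Sites near the limits of the choice were as follows. On the inside, 10 sites had exactly 50 counts in their weaker aOPC library, among them an intronic site of Ccdc85c with 50 and 85 counts in aOPC against 0 and 1 in aOL, a site of Tspan14 with 50 and 114 against 0 and 0, a site of Ly6g6e with 50 and 86 against 0 and 0, and a site on chromosome 12 in no gene by the authors' annotation with 50 and 63 against 0 and 0. Just outside, 11 sites had 49 counts in the weaker aOPC library, such as a site of Ptprm with 49 and 163 in aOPC against 1 and 3 in aOL, a site of Usp48 with 49 and 134 against 0 and 0, and a site of Hspg2 with 49 and 59 against 0 and 0. Apart from the library whose count sets the limit, the counts printed for the sites inside and outside overlapped in each library. Both strands of 1 CCGG in Papss1 were missed by a single count each, the plus strand with 49 and 138 in aOPC against 0 and 2 in aOL, and the minus strand with 124 and 258 against 0 and 4. Another 4 sites were left out for a highest aOL count of 4. The limit in aOPC replicate 2, the shallowest library, left out the most: 1433 sites met every other limit but had under 50 counts in that library, and leaving it out gave 1648 sites.

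The opposite choice, at least 50 counts in both aOL libraries and at most 3 in both aOPC libraries, gave 494 sites, which are used here for comparison. The 2 numbers are not on an equal footing, as the summed aOL libraries were deeper than the aOPC ones. With all counts scaled to the total of the shallowest library, the same limits gave 150 sites read in aOPC and not in aOL, of which 142 were among the 215, and 43 sites read in aOL and not in aOPC.

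The sites were unevenly spread over the genome. They lay on 16 chromosomes, with 43 on chromosome 8, 29 on chromosome 7, 26 on chromosome 4, 24 on chromosome 12, 23 on chromosome 1 and 15 on chromosome 14. These 6 chromosomes held 74.4% of the 215 sites, 66.6% of the 494 sites read in aOL and not in aOPC against 33.6% of the deeply read aOPC sites. None of the 215 lay on chromosomes 2, 13, 19, X or Y, which held 1841 deeply read aOPC sites and 14 of the 494. Chromosome 2 showed the contrast most plainly, with 883 deeply read aOPC sites, none of the 215 and 1 of the 494. Chromosome 8 had fewer deeply read sites, 678, and 43 of the 215 with 86 of the 494.

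**Figure D2:**
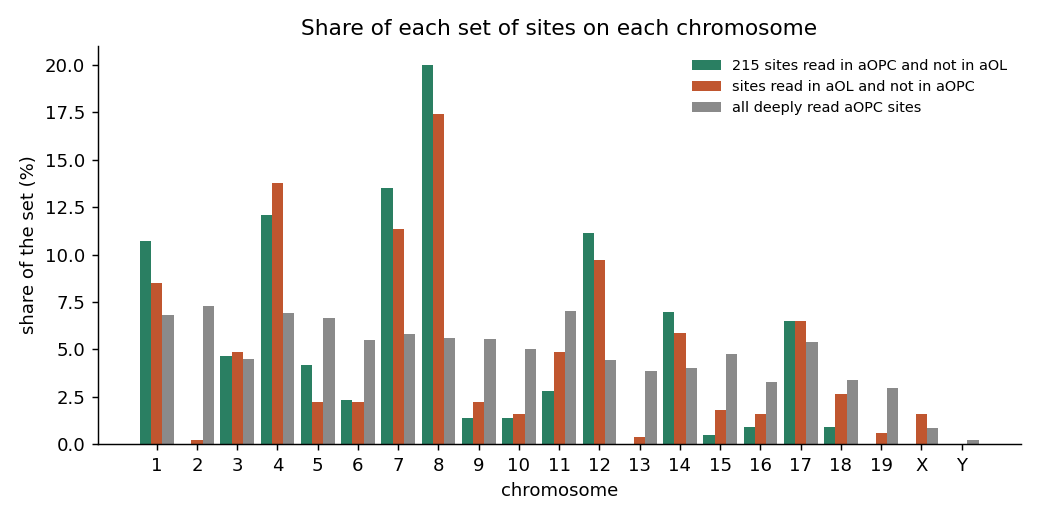
Share (%) of the 215 sites read in aOPC and not in aOL, of the 494 sites read in aOL and not in aOPC, and of all 12107 deeply read aOPC sites that lay on each chromosome. Chromosome 8 held 43 of the 215 sites and 17.4% of the 494 but 5.6% of the deeply read sites, and chromosome 2 held none of the 215 sites and 7.31% of the deeply read sites.

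Within a chromosome the sites stood in stretches. With runs of sites broken where the gap exceeded 5 Mb, there were 49 stretches, of which 16 held 5 or more sites. These 16 spanned 141 Mb in all and held 152 of the 215 sites, or 70.7%, against 7.33% of the deeply read aOPC sites and 46% of the 494. All 26 sites of chromosome 4 lay within 14.4 Mb, between positions 136552054 and 150907388, where they were 16.2% of the deeply read aOPC sites. On chromosome 5, 8 sites lay within 1.91 Mb, where they were 27.6% of the deeply read sites, and on chromosome 1 a stretch of 1.78 Mb had 5 deeply read aOPC sites, all of which were among the 215. The stretches follow from the 5 Mb gap chosen and are given as a description.

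The 5 Mb bins with the most sites were the bin of chromosome 4 from 135 to 140 Mb with 14 of its 85 deeply read aOPC sites, the bin of chromosome 8 from 90 to 95 Mb with 9 of 55, the bins of chromosome 4 from 140 to 145 Mb with 8 of 56 and of chromosome 5 from 70 to 75 Mb with 8 of 32, and the bins of chromosome 12 from 20 to 25 Mb with 7 of 18 and of chromosome 8 from 35 to 40 Mb with 7 of 20. The same 6 bins held 21, 15, 19, 6, 8 and 14 of the 494 sites. Over the 556 bins with a listed site, 90 had at least 1 of the 215 sites, 152 had at least 1 of the 494, and 76 had both. The Spearman correlation between the numbers of both kinds over the bins was 0.628, against 0.197 between the 215 sites and the deeply read aOPC sites, as a description over bins that share the same libraries. The median distance from 1 of the 215 sites to the nearest of the 494 was 180196 bases, and from another deeply read aOPC site it was 6815880 bases.

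At short range the sites were mostly alone. Only 24 of the 215, or 11.2%, had another of the 215 within 10 kb, and 191 of the 202 runs with gaps of at most 10 kb were a single site. The share was 41.3% among the 1648 sites that met the limits without aOPC replicate 2. Of the 11 runs with more than 1 site, 8 held the 2 strands of 1 CCGG or the 2 ends of 1 MspI fragment, with 5 pairs of each kind. The other 3, in Gpatch2, in Prox1 and between positions 141360366 and 141362810 of chromosome 4, held neither.

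The 2 runs with 3 sites were in Cys1, which encodes the cilium protein cystin, and in Scfd2, which encodes a Sec1-family protein. Each run joined both kinds of pair. In Cys1 the 3 sites lay at positions 24666229, 24666440 and 24666441 of chromosome 12, in an exon of the RefSeq annotation outside the coding part. Their aOPC counts in replicates 2 and 3 were 120 and 154, 52 and 140, and 57 and 168, and in aOL replicates 2 and 3 they were 0 and 0, 0 and 2, and 0 and 1. The neighbouring end at position 24666690 had 22 and 54 counts in aOPC against none in aOL, so every read end of 2 successive fragments was near 0 in aOL. The letters around the sites in Cys1 were as follows, and the last pair are the strands of a single CCGG.
Cys1, chr12:24666215-24666244, plus strand: ccactgtcttggtCCGGggatgcaacataa
Cys1, chr12:24666426-24666455, plus strand: agctaatgtaataCCGGgatgccaaagaag
Cys1, chr12:24666426-24666455, minus strand: cttctttggcatcCCGGtattacattagct

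In Scfd2 ends that were near 0 in aOL lay next to ends that were read in both populations. The 3 sites, all in an intron, were at positions 74281602, 74281715 and 74281716 of chromosome 5. They had 50 and 78, 53 and 120, and 79 and 219 counts in the 2 aOPC replicates, and 0 and 1, 0 and 3, and 2 and 2 in aOL. The outer ends on both sides were read in both populations: position 74281475 had 42 and 156 counts in aOPC against 100 and 181 in aOL, and position 74281826 had 95 and 152 against 88 and 147. The end at 74281826 belongs to the same fragment as the site at 74281715, so of the 2 ends of that fragment 1 was read in aOL and the other was not. The fragments are shown whole to make these positions visible, from CCGG to CCGG.
Scfd2, first fragment, chr5:74281601-74281717, plus strand: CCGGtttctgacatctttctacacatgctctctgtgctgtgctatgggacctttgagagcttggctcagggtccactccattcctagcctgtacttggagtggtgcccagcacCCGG
Scfd2, next fragment, chr5:74281714-74281827, plus strand: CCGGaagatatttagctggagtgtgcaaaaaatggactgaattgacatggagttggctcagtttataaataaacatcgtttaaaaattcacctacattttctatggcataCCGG
The remaining site of Scfd2, at position 74230314, had 66 and 170 counts in aOPC against none in aOL.

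The Tox3 fragment had both of its ends among the 215. Its plus end, at position 90290573, is the site given above, and its minus end, at position 90290673, had 56 and 156 counts in aOPC against none in aOL. It is printed whole as the strongest fragment of that kind.
Tox3, chr8:90290572-90290674, plus strand: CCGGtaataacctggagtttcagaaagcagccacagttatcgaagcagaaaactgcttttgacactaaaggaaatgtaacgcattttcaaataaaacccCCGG

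By the authors' annotation, 119 of the 215 sites, or 55.3%, lay in a gene, 111 of them in an intron and 9 in an exon, with 1 site listed under both, and 4 lay in a promoter and 1 in a CpG island. For the other deeply read aOPC sites the shares were 59.2% in a gene, 11.3% in an exon, 3.73% in a promoter and 1.16% in a CpG island, against 4.19%, 1.86% and 0.465% of the 215 for the last 3. RefSeq spans put 144 of the 215, or 67%, in a gene, with 5 in a coding exon, 20 in an exon outside the coding part and 119 in an intron. The median distance to the nearest start of a coding gene was 35325 bases for the 215 and 33180 bases for the other deeply read aOPC sites. The shares in exons, promoters and CpG islands by the authors' annotation were thus lower for the 215 sites, and these differences were not tested.

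The 4 promoter sites were named for Nif3l1, Gm20257, Pcp4l1 and Ccdc85a. They had 68 and 258, 51 and 188, 69 and 139, and 104 and 199 counts in the 2 aOPC replicates and at most 2 in an aOL library. The site of Pcp4l1 was the nearest to a start, at 457 bases. In all, 11 of the 215 sites lay within 2 kb of the start of a coding gene, or 5.12%, against 6.36% of the other deeply read aOPC sites.

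In sequence the fragments were close to those of other deeply read aOPC sites. Fragments read by the 215 sites had a median length of 167 bases, counted from CCGG to CCGG, a median GC content of 49.7% and a median of 2.3 CpG per 100 bases, against 143 bases, 50.4% and 2.63 CpG for the other deeply read aOPC sites. The first 40 bases of the read occurred once among all MspI ends of the reference for 207 of the 215 sites, or 96.3%, and for 90.1% of the other deeply read sites. At 29 of the 215 the CCGG lay in repeat-masked sequence, or 13.5%, against 14.5%.

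The opposite set had much longer reference fragments. Of the 494 sites read in aOL and not in aOPC, 29, or 5.87%, read a reference fragment of 31 to 400 bases, and their median reference fragment was 1190.5 bases. Of the 215 sites, 214, or 99.5%, read a fragment in that range, as did 98.7% of the other deeply read aOPC sites and 97.6% of the other deeply read aOL sites. Among the 43 sites left after scaling to equal depth, the share was 9.3% and the median 1041 bases. The fragments are those of the C57BL/6J reference, and whether the mice of either line carried the same letters at these positions was not tested.

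**Figure D3:**
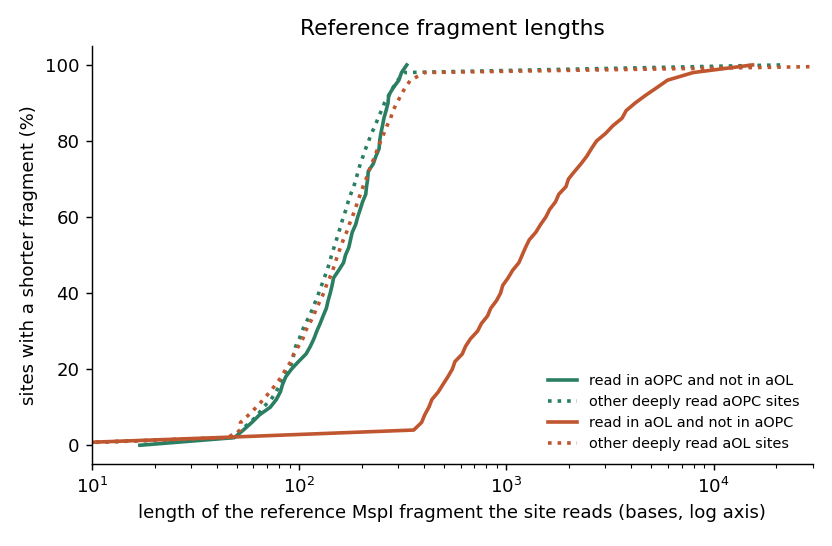
Cumulative distribution of the reference MspI fragment length (bases, log axis) for the sites read in aOPC and not in aOL, the sites read in aOL and not in aOPC, and the other deeply read sites of each population; each curve gives the share (%) of sites with a shorter fragment. Medians were 167, 1190.5, 143 and 153 bases in that order for the 215 sites, the 494 sites, the other aOPC sites and the other aOL sites.

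Each of the 215 sites has a partner, the cytosine of the same CCGG on the other strand, and a mate, the facing cytosine at the other end of the same fragment. Across all listed sites a mate's count followed the site's more closely than a partner's did: over 580240 pairs the correlation of log2(count + 1) between the ends of a fragment was 0.491 to 0.603 in the 4 libraries, and over 396716 pairs that between the strands of a CCGG was 0.0766 to 0.205. These are descriptions within a library.

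The partner was listed for 108 of the 215 sites, and 46 partners had at least 10 counts in both aOPC libraries. Of these 46, 34 had at most 3 counts in both aOL libraries, 11 had at least 10 in both and 1 lay between. Of the mates, 122 had at least 10 counts in both aOPC libraries, and 86 of them were at most 3 in both aOL libraries, 31 were at least 10 in both and 5 lay between. Of those read in aOPC, 10 partners and 10 mates were themselves among the 215, so the choice of the sites fixed their aOL counts. Without them, 24 of 36 partners, or 66.7%, and 76 of 112 mates, or 67.9%, were at most 3 in both aOL libraries. For the other deeply read aOPC sites, with partners and mates among the 215 likewise left out, the shares were 0.424% of 2124 partners and 0.584% of 6679 mates.

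For 21 of the 215 sites the partner and the mate were both read in aOPC and neither was among the 215. Both were near 0 in aOL for 9 of them, the partner alone for 4, the mate alone for 4 and neither for 2, with 2 in between. Both strands of a CCGG were among the 215, and so near 0 in aOL by choice, at Kif5a, the heavy chain of a neuronal kinesin, where the plus and minus cytosines at 127231661 and 127231662 of chromosome 10 had 54 and 75, and 51 and 102 counts in aOPC against 0 and 0, and 1 and 1 in aOL. The far end of the minus fragment, by contrast, had 29 and 54 counts in aOPC against 113 and 155 in aOL. A single strand was near 0 in aOL at position 190137644 of chromosome 1 in Prox1, a homeobox factor, with 51 and 199 counts in aOPC against 1 and 1 in aOL. Its partner, 1 base away, had 166 and 295 counts in aOPC against 281 and 394 in aOL, and its mate had 17 and 40 in aOPC against none in aOL. So both strands of that CCGG were read in aOPC, though the plus strand more, and the plus strand alone in aOL, while both ends of the minus fragment were near 0 in aOL.

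Other sites near the 215 were mostly not called. A site was called where edgeR's quasi-likelihood test gave a Benjamini-Hochberg adjusted p under 0.05, and over the 443062 sites tested 1.08% were called lower in aOL and 1.21% higher. All 215 sites were called lower, which their choice fixes. The choice used this same contrast, so the calls near them are given as a description. Of 164 tested partners and mates, 108 were called lower, or 65.9%, and 1 higher. Of the 1266 other tested sites within 10 kb, 134 were called lower, or 10.6%, 79 higher, or 6.24%, and 1053 were not called. Of the 134, 112 had at most 3 counts in both aOL libraries, and of the 79, 69 had at most 3 in both aOPC libraries. These are 83.6% and 87.3%, against 75.1% of all 4553 other sites called lower and 76.6% of all 5378 called higher, so calls were mainly of sites near 0 in either population over the whole genome too. The summed CPM of the neighbours overlapped between populations, at 2349 and 2688 in aOPC against 2518 and 2323 in aOL (exact permutation test, two-sided, p = 0.667, where the smallest p that 2 libraries against 2 can give is 0.333).

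The share called was higher near the sites than far from them. It was 28.4% lower and 3.55% higher among 141 sites within 0.5 kb, 12.4% and 11% among 145 sites from 0.5 to 2 kb, 8.02% and 5.13% among 8731 sites from 10 to 100 kb, and 1.54% and 1.5% among 64626 sites from 1 to 5 Mb. Of the 327863 sites that were farther than 5 Mb or on a chromosome without any of the 215, 0.248% were called lower and 0.768% higher. Median log2 differences, aOL minus aOPC, were −0.35 within 0.5 kb and between −0.02 and 0.18 in the farther intervals up to 5 Mb. With an aOPC library left out, the filter of 10 counts in at least 2 libraries dropped sites near 0 in both aOL libraries. None of the 215 was then tested. Of the neighbours called lower within 10 kb most were such sites, so those fits cannot show whether the shares rest on 1 library.

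**Figure D4:**
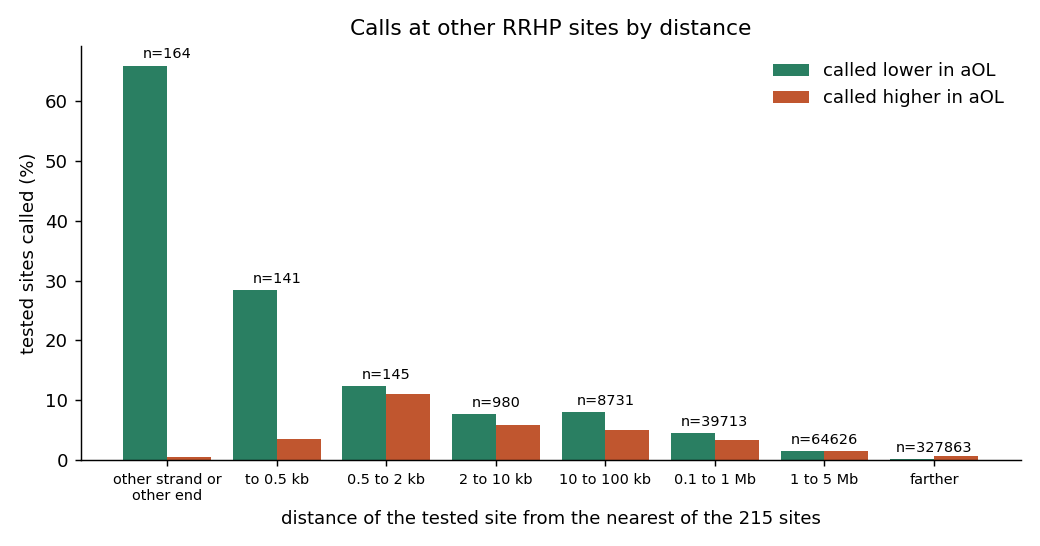
Share (%) of tested RRHP sites called lower or higher in aOL (edgeR, adjusted p under 0.05) by distance from the nearest of the 215 sites, which are themselves left out; n is the number of sites tested. The share called lower went from 65.9% at the partner and mate to 0.248% beyond 5 Mb or on other chromosomes, with the share called higher from 0.61% to 0.768% and highest, 11%, at 0.5 to 2 kb.

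The 119 sites in exons or introns lay in 100 genes, 15 of which had 2 or more sites. Scfd2 had 4, Cys1 had 3, and Samd4, an RNA-binding repressor of translation, had 3. The 3 sites of Samd4 lay between positions 46954293 and 47043470 of chromosome 14 and had 76 and 174, 63 and 163, and 54 and 142 counts in aOPC and at most 1 in an aOL library. Genes with 2 sites included Gpatch2, Prox1, the zinc finger gene Zbtb40, Eif4g3, a scaffold of translation initiation, Iffo2, the guanine nucleotide exchange factor Arhgef10l, Tox3, Fto, a demethylase of RNA, and Kif5a. In Fto the sites had 68 and 155, and 121 and 190 counts in aOPC against 0 and 0, and 0 and 2 in aOL. Ywhaq, Nrm and Rcan2 also had 2 each, and Ywhaq and Nrm are named here after their values were seen.

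Other sites of these genes were called more often than sites in all. In 99 of the 100 genes another site was tested, 3719 in all, partners and mates included, and 9.73% of these were called lower and 5.19% higher, on the contrast used to choose the 215, against 1.08% and 1.21% of all sites tested. Most were thus not called. The median over the genes of the ratio of aOL to aOPC CPM, summed over all other listed sites of the gene, was 0.901, with quartiles of 0.726 and 1. Fto had 167 other tested sites, of which 24 were called lower and 13 higher, and Scfd2 had 52, of which 9 were called lower and 2 higher. In Dock4, a Rac and Rap exchange factor, 52 others were tested, of which 2 were called lower and 3 higher.

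RNA was measured in the same pellets and did not enter the choice of the sites. The values are log2 expression that the authors had normalized to equal quantiles, listed for 11315 genes, of which 11133 reached a log2 value of 5 in at least 2 libraries and were tested with limma. The populations were not cleanly separated by their markers. The 12 oligodendrocyte and myelin genes had medians of 17.4 and 16.7 in aOPC against 17.4 and 17.4 in aOL. Pdgfra, the receptor that marks progenitors, was at 7.54 and 5.47 in aOPC against at 4.98 and 1.63 in aOL, and Neu4, a sialidase of progenitors, at 9.9 and 7.07 against 3.03 and 3.61. So these progenitor markers, Pdgfra, whose reporter was sorted on, and Neu4, picked after its values were seen, were higher in aOPC without overlap, while myelin RNA was high in both. Of all 12 tested progenitor genes, 5 were lower in aOL without overlap, 2, Sox10 and Matn4, were higher without overlap, 5 overlapped, and none was called. Their part in the results was not tested.

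Few genes were called between the populations. At the study's thresholds, limma p under 0.01 and Benjamini-Hochberg adjusted p under 0.05, 0.0719% of the 11133 genes were called lower in aOL and 0.00898% higher, which are 8 genes and 1 gene. The paper applied these thresholds to DESeq2 on raw counts, replicate 1 included, and reported far more genes. Its numbers are not comparable with those of limma on 2 libraries per population. Without an overlap between the libraries of the populations were 29.9% lower and 31.9% higher. Of the 100 genes with a site in an exon or intron, 70 were listed and tested, 1 was called lower and none higher, 17 were lower without overlap, or 24.3%, and 33 higher without overlap, or 47.1%. Their median log2 difference, aOL minus aOPC, was 0.22, against 0.02 over all genes tested, and it was 0.42 without aOPC replicate 2 and 0.14 without aOPC replicate 3. At an unadjusted p under 0.05, 11 were lower and 20 higher, or 15.7% and 28.6%, against 12% and 12.1% of all genes tested. The number called depended on the library: it was 37 of 69 genes without aOPC replicate 2, 27 of 70 without aOPC replicate 3, 1 of 69 without aOL replicate 2 and 3 of 70 without aOL replicate 3, out of 3995, 2344, 100 and 99 calls over all genes.

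The called gene was Efemp1, which encodes fibulin-3, a glycoprotein of the extracellular matrix. Its RNA was at 11.4 and 10.9 on the log2 scale in aOPC against at 5.81 and 5.71 in aOL, a log2 difference of −5.37 ± 0.26 (SE, limma adjusted p = 0.0469). Its site, in an intron at position 28891546 of chromosome 11, had 54 and 153 counts in aOPC against 1 and 2 in aOL, and its mate had 31 and 61 in aOPC against none in aOL. The RNA was thus lower in both aOL libraries than in either aOPC library, and for the site this follows from its choice. With the genes of low value left in, the limma adjusted p was 0.0581, and over all alternatives it ran from 0.00104 to 0.0581. Efemp1 is a member of the endothelial and mural list, and Cldn5, a tight-junction protein of endothelium from the same list, ran the other way, at 0.333 and 1.8 in aOPC against 5.92 and 7.13 in aOL, with a limma adjusted p of 0.108.

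Behind Efemp1, the largest lower differences without overlap among genes with a site in an exon or intron were in Rasl11b, a Ras-like small GTPase, Padi2, a deiminase that citrullinates myelin proteins, Rcan2, a regulator of calcineurin, Ly6g6e and Acyp2, an acylphosphatase. With all libraries and no replicate block, none of them passed the limma test over all genes, and with the block Rasl11b did (limma adjusted p = 0.0413). The RNA of Rasl11b was at 11.5 and 11.5 in aOPC against 9.05 and 9.16 in aOL (limma adjusted p = 0.0611), and its intronic site had 52 and 94 counts in aOPC against 1 and 0 in aOL. The RNA of Padi2 was at 14 and 14.2 in aOPC against 11.9 and 11.7 in aOL (limma adjusted p = 0.078), and its site had 50 and 121 counts against 0 and 2. For both genes the RNA values did not overlap, and the site counts were fixed by the choice. In Rcan2, Ly6g6e and Acyp2 the log2 differences were −1.62, −1.26 and −1.2, with limma adjusted p of 0.122, 0.128 and 0.126.

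In other genes RNA values were higher in aOL without overlap. Among genes with a site in an exon or intron, the largest such differences were in Tox3, Kcnj10, a potassium channel of glia, Thrb, a thyroid hormone receptor, Ptchd2, Suclg2, a subunit of succinyl-CoA synthetase, and Myrip, an adaptor of myosin and Rab27. With all libraries and no replicate block, none of them passed the limma test either, and with the block Kcnj10, Tox3 and Thrb did (limma adjusted p of 0.0261, 0.0382 and 0.0437). The RNA of Tox3 was at 5.08 and 6.05 in aOPC against 8.66 and 8.57 in aOL, a log2 difference of 3.05 ± 0.39 (SE, limma adjusted p = 0.108), while its 2 sites had at most 1 count in aOL. The RNA of Kcnj10 was at 13.5 and 12.9 in aOPC against 16.2 and 16 in aOL, a log2 difference of 2.91 ± 0.27 (SE, limma adjusted p = 0.078), and its intronic site had 92 and 173 counts in aOPC against none in aOL. The RNA of Thrb was at 5.91 and 5.54 in aOPC against 8.14 and 8.07 in aOL, a log2 difference of 2.38 ± 0.23 (SE, limma adjusted p = 0.078), with a site of 55 and 158 counts in aOPC against none in aOL. In Ptchd2, Suclg2 and Myrip the log2 differences were 2.37, 2.32 and 1.64, with limma adjusted p of 0.138, 0.132 and 0.177. With a library left out, the lone library of a population was assumed to vary like the other pair. Passes of these 11 genes other than Efemp1 in such fits are therefore not given, and each difference kept its sign in them. The 215 sites thus lay both in genes with lower and in genes with higher RNA values in aOL.

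**Figure D5:**
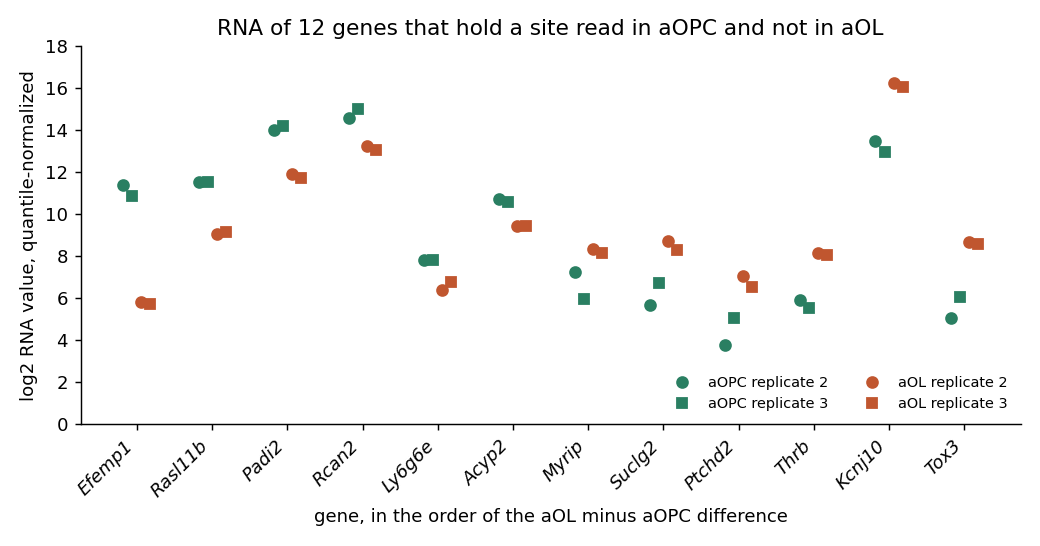
RNA level (log2, quantile-normalized by the authors) in each of the 4 libraries for the 6 genes with the most negative and the 6 with the most positive difference among genes that hold at least 1 of the 215 sites in an exon or intron and do not overlap between populations. Efemp1, at 11.4 and 10.9 in aOPC against 5.81 and 5.71 in aOL, was the only gene called, and Tox3, at 5.08 and 6.05 against 8.66 and 8.57, had the largest positive difference.

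Of the gene lists used to describe these cells, only 1 gene held a site, Efemp1. None of the 13 progenitor genes, the 12 oligodendrocyte and myelin genes or the 11 genes of 5hmC, its removal and its precursors did, nor any of the 8 astrocyte, 9 microglia or 6 neuron genes. Tet1, which writes 5hmC, had RNA of 11.1 and 10.7 in aOPC against 11.1 and 10.9 in aOL, and Tet2 of 11.4 and 9.49 against 10.6 and 10.7. Neither was separated between the populations. Over the 10 tested genes of that list 2 were lower and 2 higher without overlap, none was called, and the median log2 difference was 0.000592. The counts without overlap, lower and higher, were 5 and 2 of 12 progenitor genes, 4 and 4 of 12 myelin genes, 2 and 1 of 8 astrocyte genes, 3 and 1 of 8 microglia genes, 1 and 1 of 2 endothelial and mural genes and 1 and 0 of 2 neuron genes, and besides Efemp1 none was called.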

How the data were processed

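The deposited RRHP files hold raw read counts per CpG cytosine and strand, which the authors made from reads aligned to mm10; aligner, duplicate handling and site filters are not given in the sources used here. The authors' log2 RNA values came from BWA alignment to mm10 with gene counting, per the labels and methods, with DESeq2 1.2.5 in the submitters' processing notes; the step to quantile-normalized log2 values is not given in the sources used here. Positions were made 1-based, and every site on an assembled chromosome (100%) lay at a CCGG of GRCm38.

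The members and gene lists were chosen with earlier results of these data known. Sites with at least 10 counts in at least 2 libraries were tested with edgeR 4.0.16 (glmQLFit, TMM), RNA with limma 3.58.1 (R 4.3.3); both were tested on simulated data. With 2 libraries a population, p-values measure the spread between these libraries. Genes named were those with a called RNA, the 6 largest and 6 smallest RNA differences without overlap, genes with 2 or more sites (up to 12), promoter sites, the 12 strongest sites, runs of 3 or more sites, listed genes with a site and the edges of the rule. DESeq2 1.42.0, other filters, thresholds and each library left out were alternatives.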

Additional observations from a re-analysis of the deposited data

How the results depend on the processing

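The number of sites rested mainly on depth in aOPC: it was 691 with at least 30 counts, 24 with at least 100 and 94 with none in both aOL libraries, and leaving out each library gave 216 to 1648. The share within 10 kb of another was 29.8% at 100 kb, and 11% to 41.3% with each library left out. In RefSeq spans 67% lay in a gene. Of the 108 listed partners, those among the sites included, 76.9% were at most 3 in both aOL libraries. Counting unlisted partners as 0, the share was 88.4%. For listed partners of the other deeply read aOPC sites it was 39.5%. Only 46 of the 108 had at least 10 counts in both aOPC libraries. All sites called lower numbered 261 with 10 counts in every library and 12886 with no filter, and 920 to 15643 with a library left out, where the lone sample of a population was assumed to vary like the other pair. DESeq2 called 4262 lower and 2328 higher, so that 64.7% of its calls were lower against 47% of edgeR's. Neighbours called lower were 20.3% within 2 kb, 8.34% within 100 kb and 0.437% with 10 counts in every library, and 1.58% to 12.6% with each library left out. Requiring 10 counts in every library drops any site near 0 in aOL, as does the main filter with an aOPC library left out. Such sites were 83.6% of the neighbours called lower within 10 kb. The 0.437%, and the 1.58% without aOPC replicate 2, therefore cannot show whether the share holds. The 261 sites above are likewise only sites still read in aOL. RNA calls numbered 0 of 11315 genes with no filter (limma), and 99 to 3995 with a library left out; among genes with a site they numbered 0 and 1 to 37. Unfiltered, Efemp1 lost its call at an adjusted p of 0.0581. Same-numbered libraries did not deviate together (r = −0.0798 over sites, −0.0736 over genes). Each population gives a single difference between replicates, so these values cannot settle whether the numbers pair the libraries. With the replicate block 5551 sites were called lower, 127 genes were called, and 5 of 70 genes with a site (Efemp1, Kcnj10, Tox3, Rasl11b and Thrb, limma adjusted p of 0.00973 to 0.0437). The RNA differences of the 12 genes named for them kept their sign in every alternative run.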
